A study of Homo sapiens with 25 samples.

Results

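A549 cells treated with the third antisense oligonucleotide against candidate 42 (42 ASO3) were compared directly with A549 cells treated with the third one against candidate 240 (240 ASO3). The comparison was chosen, with earlier results of these data known, because these were the most active oligonucleotides against each of the 2 candidates. It used 6 of the 25 RNA sequencing libraries of the series, 3 for 42 ASO3 and 3 for 240 ASO3, numbered replicate 3, 4 and 5 in both groups. A549 is an established human lung adenocarcinoma line, and the candidates are long noncoding RNAs that the submitters named CHiLL1 (candidate 42) and CHiLL2 (candidate 240). All cells of the series were transfected with an antisense oligonucleotide at 25 nM, and total RNA was taken 24 h later. The control libraries received a commercial neutral oligonucleotide (ASO Control A, Qiagen), so a transfected oligonucleotide was common to all groups. The A549 part of the series also held 1 further oligonucleotide per candidate, and NCI-H460, another non-small cell lung cancer line, received the same oligonucleotides with 2 libraries per group. The labels do not say whether the replicates were separate cultures, so the p-values measure only the spread between these libraries.

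Antisense oligonucleotides of the gapmer kind pair with a transcript in the nucleus and recruit RNase H, which cuts the RNA strand of the hybrid. Short stretches of pairing with other transcripts, and effects of the oligonucleotide chemistry itself, are known to change further genes, which is why the field sets different oligonucleotides and a neutral one side by side. A549 cells carry an inactive KEAP1, which keeps NRF2 target genes such as the aldo-keto reductases at high levels, and they retain wild-type p53.

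The authors' values are TPM per gene name, a transcript abundance scaled for length and library, rescaled between libraries by the authors, so the read depth behind a value is unknown. The 25 columns summed to between 924350 and 1179224, and the 240 ASO3 replicate 3 library had the highest sum. Mitochondrially encoded genes held 7.43% to 11.1% of the values in the 6 libraries. On the first principal component of the 6 libraries, which held 45.6% of the variance, the 42 ASO3 libraries lay at 16.4, 34.6 and 31.8 and the 240 ASO3 libraries at -62.7, -8.6 and -11.5 for replicates 3, 4 and 5. The 240 ASO3 replicate 3 library thus stood apart from the other 5, and the counts of the main lists are given below with and without it. Every tested difference is 42 ASO3 minus 240 ASO3 on the log2(TPM + 0.5) scale, which understates the change of low genes, from a limma fit over the 15 A549 libraries with Benjamini-Hochberg adjustment. A gene was called higher or lower at an adjusted p under 0.05.

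The labels give the candidates no gene name. With earlier results of these data known, AC107959.3 was taken as candidate 42, and AC015712.6, with AC015712.1 that overlaps it, as candidate 240, so their values are a description and check no label. AC107959.3 lies on the minus strand at chr8:23071377-23074488 (hg38) and had 1.13, 0 and 0.824 TPM with 42 ASO3, against 12.7, 15.4 and 15.1 TPM with 240 ASO3 and 7.13, 5.12 and 10.6 TPM with the control ASO. All 42 ASO3 libraries lay below all 240 ASO3 and control libraries, and 1 of them was listed at 0. AC015712.1, on the plus strand at chr15:100849561-100861756, had 2.23, 3.19 and 2.33 TPM with 42 ASO3, against 0.568, 0.31 and 0.307 TPM with 240 ASO3 and 2.48, 2.19 and 2.94 TPM with the control ASO. Here the order was turned round, with all 240 ASO3 libraries below the 42 ASO3 and control libraries. AC015712.6, at chr15:100849831-100876836 on the same strand, had 0.328, 0.296 and 0.365 TPM with 42 ASO3, against 0, 0.0297 and 0.0164 TPM with 240 ASO3 and 0.268, 0.418 and 0.354 TPM with the control ASO and fell under the filter of a mean of 1 TPM over the A549 libraries. The 2 genes overlap on one strand, so the authors' quantification may have split reads between them. The strand setting of the quantification is not stated, so antisense partners cannot be separated either. In the authors' deposited tables against the control, AC107959.3 had a log2 fold change of -3.54 with 42 ASO3 (q-value 0.0678), and AC015712.1 had -2.67 with 240 ASO3 (q-value 0.0112).

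The 2 oligonucleotides left A549 cells with broadly different RNA levels. Of 14740 genes tested, 1112 were called higher with 42 ASO3 than with 240 ASO3 (7.54%) and 1186 were called lower (8.05%), together 15.6%. At least 1 on the log2 scale was reached by 289 of the higher and 309 of the lower genes, and at least 2 by 27 and 20. The median difference was 0.72 among the higher and -0.76 among the lower genes, against 0.02 over all tested genes. The 3 libraries of one group lay wholly outside those of the other in 1104 of the higher and 1175 of the lower calls. Among all tested genes, 16% lay wholly above and 15.4% wholly below with 42 ASO3, 31.4% together. Calls and separation rest on the same values, so this is a description. The genes called higher spanned a median of 40536 bp from first to last base, the genes called lower 26317 bp and all tested genes 28148 bp, where the coordinates of the authors' tables give a span. Among calls of at least 1 on the log2 scale the medians were 48895 bp for the higher and 31618 bp for the lower genes.

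The number of calls depended on the fit, and 0 genes called above were called in the opposite direction in any of the 18 alternative fits. The same-numbered libraries deviated together, most clearly those of replicate 3 (correlation 0.368), while the numbers 4 and 5 were not told apart. With the replicate number as a block 4408 genes were called, 2298 higher and 2110 lower, including all 2298 of the calls above. A fit to the 6 libraries alone called 982, and 2145 were called without the 240 ASO3 replicate 3 library. Leaving out 42 ASO3 replicate 4 gave 1490 and leaving out 42 ASO3 replicate 5 gave 1459.

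**Figure D1:**
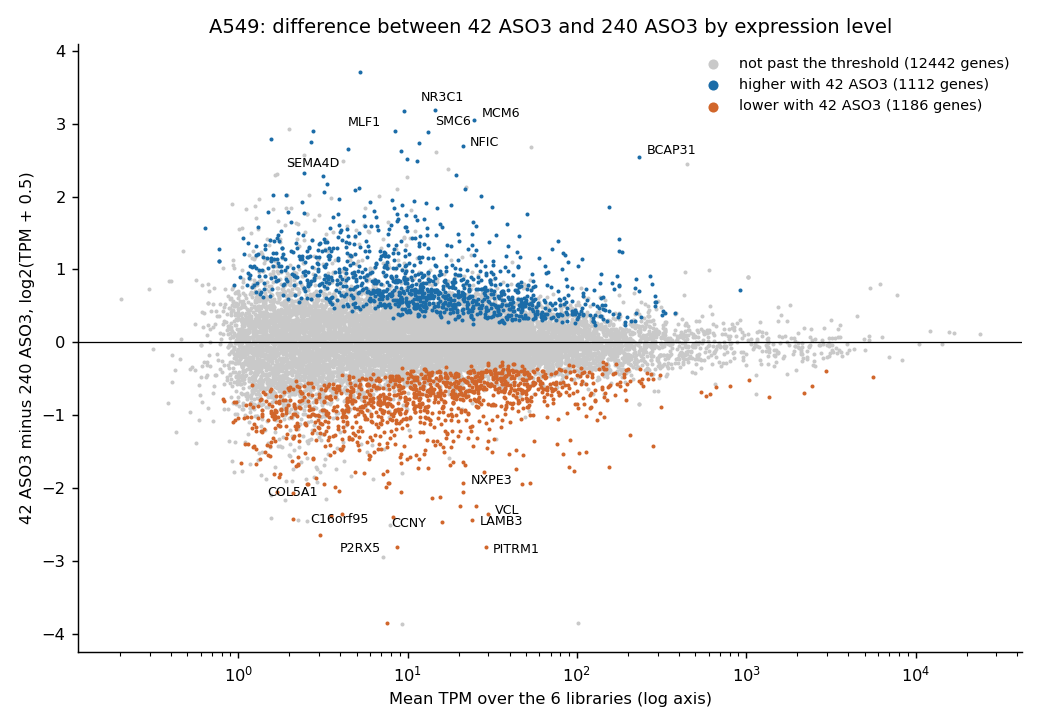
Difference between 42 ASO3 and 240 ASO3 (vertical, log2(TPM + 0.5)) against the mean TPM of the 6 A549 libraries (horizontal, log axis), 1 point per tested gene. The 1112 genes called higher and the 1186 called lower are spread over the range of expression, and the labelled genes are among the 12 named in each direction.

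The largest called differences were named, 12 in each direction, among genes that averaged 5 TPM or more in their higher group. The rule also asked that the 42 ASO3 and 240 ASO3 libraries did not overlap, so their separation in these genes is a description. On the side higher with 42 ASO3 these were NR3C1, MCM6, MLF1, SMC6, RALA, NFIC, CAP2, BCAP31, CNNM1, CAMK1, SPATS2 and SEMA4D, with mean TPM 5.25 to 10.4 times that of the 240 ASO3 libraries. In 12 of these 12 genes the control mean lay nearer to the 42 ASO3 mean. NR3C1, which encodes the glucocorticoid receptor, had 20.1, 29.6 and 29.6 TPM with 42 ASO3, against 1.49, 3.52 and 2.61 TPM with 240 ASO3 and 16.1, 29.8 and 36.4 TPM with the control ASO. All 42 ASO3 and control libraries lay above all 240 ASO3 libraries, and replicate 3 was the lowest library of each group. The difference was 3.18 (SE 0.32, adjusted p = 2.04e-05).

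MCM6, a subunit of the replicative DNA helicase, had 44.2, 44.3 and 45.4 TPM with 42 ASO3, against 5.81, 4.39 and 4.78 TPM with 240 ASO3 and 45.9, 52.8 and 43 TPM with the control ASO. The 42 ASO3 libraries differed by little more than 1 TPM among themselves, and the difference of 3.05 (SE 0.11, adjusted p = 3.63e-09) had the smallest adjusted p of the named genes. SMC6, a core subunit of the SMC5/6 genome maintenance complex, had 18.4, 27.5 and 25.2 TPM with 42 ASO3, against 2.21, 3 and 3.08 TPM with 240 ASO3 and 13.4, 21.5 and 21.6 TPM with the control ASO, a difference of 2.88 (SE 0.20, adjusted p = 7.9e-07). RALA, a small GTPase that acts downstream of RAS, had 18.7, 21.4 and 21.8 TPM with 42 ASO3, against 3.43, 1.79 and 3.01 TPM with 240 ASO3 and 14.3, 16.4 and 19.1 TPM with the control ASO, a difference of 2.74 (SE 0.18, adjusted p = 6.55e-07). In both genes no 240 ASO3 library reached the lowest 42 ASO3 or control library. NFIC, a transcription factor of the nuclear factor I family, had 38.3, 35.6 and 36.6 TPM with 42 ASO3, against 3.19, 7.51 and 5.95 TPM with 240 ASO3 and 38.6, 47 and 48.9 TPM with the control ASO, a difference of 2.70 (SE 0.22, adjusted p = 3.84e-06).

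BCAP31, a membrane chaperone of the endoplasmic reticulum, was the most abundant of the 12. It had 444, 366 and 380 TPM with 42 ASO3, against 93.9, 53.5 and 61.6 TPM with 240 ASO3 and 423, 358 and 339 TPM with the control ASO, a difference of 2.54 (SE 0.17, adjusted p = 6.6e-07). MLF1 (myeloid leukemia factor 1) had 15.7, 14 and 15.6 TPM with 42 ASO3, against 2.51, 1.18 and 1.29 TPM with 240 ASO3 and 9.05, 10.4 and 8.54 TPM with the control ASO, a difference of 2.90 (SE 0.19, adjusted p = 6.55e-07). It was the 1 gene of the 12 that also differed between 42 ASO3 and the control, by 0.67 (adjusted p = 0.0371). CAP2, which binds actin, differed by 2.62 (SE 0.21, adjusted p = 3.11e-06) and averaged 16 ± 2.95 TPM with 42 ASO3 and 2.18 ± 0.506 TPM with 240 ASO3 (SD, n = 3 each). CNNM1, CAMK1, a calcium/calmodulin-dependent kinase, SPATS2 and SEMA4D, a transmembrane semaphorin, differed by 2.52, 2.49, 2.30 and 2.29, with adjusted p between 2.88e-07 and 3.11e-06. SEMA4D was the lowest of the 12, at 6.21, 5.5 and 4.99 TPM with 42 ASO3, against 0.844, 0.737 and 0.638 TPM with 240 ASO3. Names of clones and small RNAs took 4 further places in this range, led by AC091729.2 on chromosome 7, with 13.5, 12.7 and 4.17 TPM with 42 ASO3, against 1.02, 0 and 0 TPM with 240 ASO3 and 1.11, 0.522 and 0 TPM with the control ASO. Its 42 ASO3 libraries lay above both other groups, with replicate 5 the lowest of them.

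**Figure D2:**
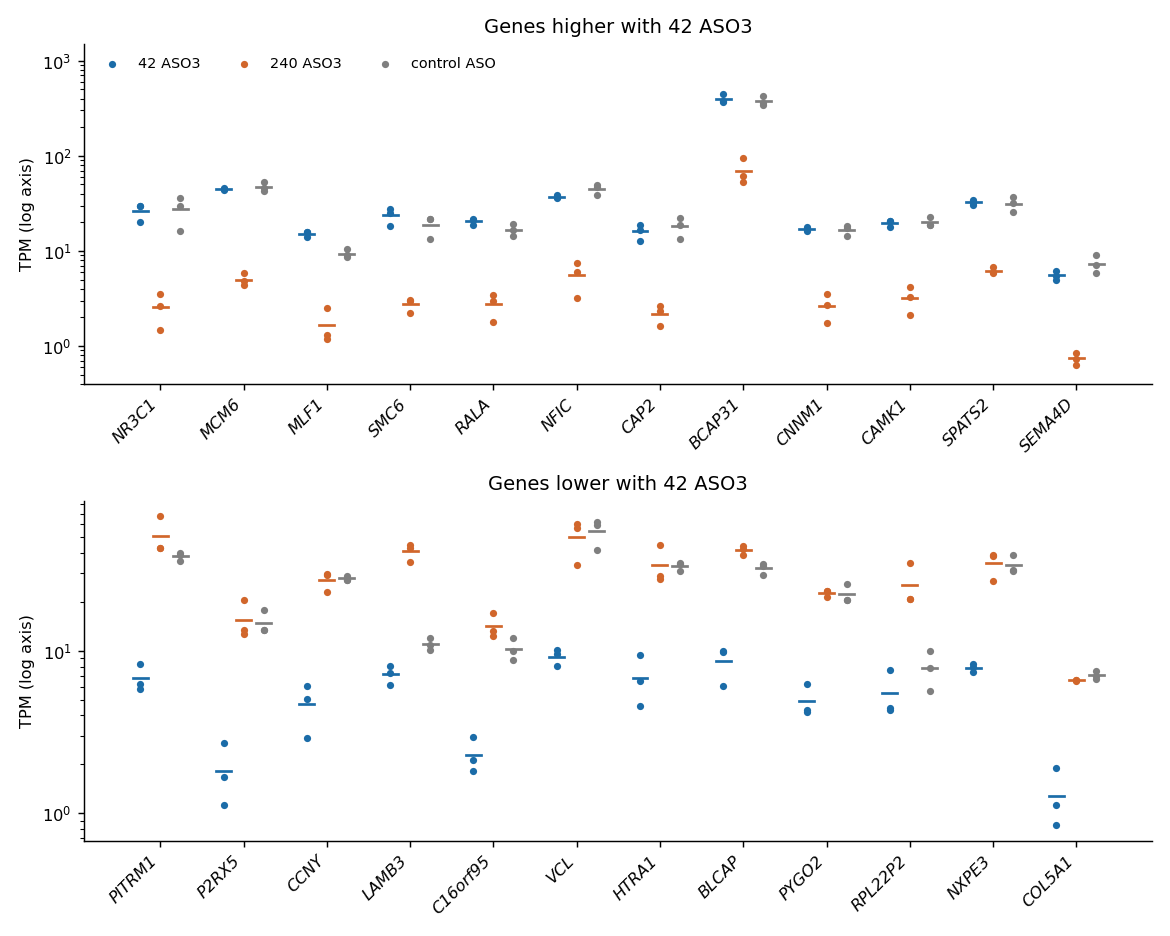
TPM on a log axis in each A549 library for the 12 named genes higher with 42 ASO3 (top) and the 12 lower with 42 ASO3 (bottom). Points are libraries of 42 ASO3, 240 ASO3 and the control ASO, from left to right within each gene, and bars are their means (n = 3 each). The control libraries sit beside 42 ASO3 in the upper genes and beside 240 ASO3 in most of the lower genes, with LAMB3 and RPL22P2 as the exceptions.

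On the side lower with 42 ASO3 the named genes were PITRM1, P2RX5, CCNY, LAMB3, C16orf95, VCL, HTRA1, BLCAP, PYGO2, RPL22P2, NXPE3 and COL5A1, whose mean TPM with 240 ASO3 was 4.40 to 8.49 times that with 42 ASO3. In 10 of these 12 the control mean lay nearer to the 240 ASO3 mean, and in LAMB3 and RPL22P2 nearer to the 42 ASO3 mean. PITRM1, a peptidase of the mitochondrial matrix, had 8.31, 5.81 and 6.25 TPM with 42 ASO3, against 67.4, 43.2 and 43.2 TPM with 240 ASO3 and 39.8, 39.1 and 35.9 TPM with the control ASO. Every 42 ASO3 library lay below every other library, and 240 ASO3 replicate 3 was the highest. The difference was -2.81 (SE 0.16, adjusted p = 4.54e-07). P2RX5, an ATP-gated ion channel, had 2.7, 1.67 and 1.12 TPM with 42 ASO3, against 20.5, 12.8 and 13.4 TPM with 240 ASO3 and 17.7, 13.4 and 13.5 TPM with the control ASO, a difference of -2.81 (SE 0.23, adjusted p = 3.57e-06). CCNY, cyclin Y, had 6.09, 5.03 and 2.92 TPM with 42 ASO3, against 29.6, 23 and 29.3 TPM with 240 ASO3 and 27.4, 27.4 and 28.9 TPM with the control ASO, a difference of -2.47 (SE 0.20, adjusted p = 3.11e-06). In neither gene did the 240 ASO3 libraries separate from the control libraries, where the differences were 0.04 (adjusted p = 0.941) and -0.04 (adjusted p = 0.934).

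VCL encodes vinculin, which links integrin adhesions to actin. It had 9.52, 10.1 and 8.02 TPM with 42 ASO3, against 33.8, 57.4 and 60.2 TPM with 240 ASO3 and 41.8, 59.6 and 62 TPM with the control ASO, a difference of -2.35 (SE 0.20, adjusted p = 4.46e-06). The 42 ASO3 libraries were the lowest throughout, and replicate 3 was the lowest library of the other groups. HTRA1, a secreted serine protease, had 9.37, 6.51 and 4.54 TPM with 42 ASO3, against 44.9, 27.6 and 28.9 TPM with 240 ASO3, a difference of -2.25 (SE 0.22, adjusted p = 1.47e-05). PYGO2, a coactivator of the Wnt pathway, had 6.21, 4.29 and 4.18 TPM with 42 ASO3, against 21.6, 23.4 and 23.5 TPM with 240 ASO3, a difference of -2.13 (SE 0.14, adjusted p = 6.55e-07). BLCAP, C16orf95 and NXPE3 differed by -2.24, -2.40 and -2.05, with adjusted p between 6.6e-07 and 1.48e-06. COL5A1, a chain of the fibrillar collagen V, had 1.89, 1.12 and 0.844 TPM with 42 ASO3, against 6.64, 6.56 and 6.64 TPM with 240 ASO3 and 7.55, 6.71 and 6.96 TPM with the control ASO, a difference of -2.04 (SE 0.20, adjusted p = 1.93e-05). All 42 ASO3 libraries were under all libraries of the other groups.

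LAMB3, the beta chain of laminin-332, showed the other pattern. It had 8.06, 6.17 and 7.35 TPM with 42 ASO3, against 35.4, 44.9 and 43 TPM with 240 ASO3 and 10.1, 10.8 and 12 TPM with the control ASO, a difference of -2.43 (SE 0.16, adjusted p = 6.6e-07). The control libraries lay close above the 42 ASO3 libraries, and the 240 ASO3 libraries stood apart at the high end. Against the control, LAMB3 differed by -0.58 with 42 ASO3 (adjusted p = 0.0346) and by 1.86 with 240 ASO3 (adjusted p = 6.22e-06), and these comparisons share the control libraries. RPL22P2, annotated as a pseudogene of the ribosomal protein gene RPL22, had 7.67, 4.31 and 4.43 TPM with 42 ASO3, against 34.6, 20.9 and 20.9 TPM with 240 ASO3 and 5.64, 10 and 7.83 TPM with the control ASO, and reads of the parent gene could reach it, so its value is uncertain. Names of clones and small RNAs took 5 further places on this side, led by AC107959.3. All 24 named genes were called in each of their 18 alternative fits, with no change of direction. The rule chose them for large differences without overlap in these same libraries, which largely fixes the direction, so this is a description.

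Among the lists with more than 3 tested members, genes of mitosis were called most often between the 2 oligonucleotides. Of 41 genes of the G2 phase and mitosis, all of them tested, 22 were called higher with 42 ASO3 (53.7%, against 7.54% of all tested genes) and 0 lower, and all 41 differences were positive. The smallest was that of KIF23, at 0.003. The median over the list was 0.53, against 0.02 over all tested genes. ANLN, MKI67, CENPA and BUB1B had the largest differences. The summed level of the 41 genes was 2811 to 2858 TPM with 42 ASO3, 1935 to 2278 TPM with 240 ASO3 and 2521 to 2765 TPM with the control ASO, so the groups did not overlap. In bulk RNA, fewer cells in mitosis and less of these RNAs per cell cannot be told apart.

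Many promoters of this list carry a short element called CHR (TTTGAA) and the CCAAT box, through which the DREAM and B-MYB-FOXM1 complexes are known to time their transcription. The promoters of the 4 named members are shown because these genes moved together, from 150 bases before to 30 after the RefSeq start site (GRCh38.p14), with TTTGAA and CCAAT on either strand in capitals. They lie at chr7:36389712-36389891 (plus strand), chr10:128126394-128126573 (minus strand), chr2:26785906-26786085 (plus strand) and chr15:40160919-40161098 (plus strand).
ANLN: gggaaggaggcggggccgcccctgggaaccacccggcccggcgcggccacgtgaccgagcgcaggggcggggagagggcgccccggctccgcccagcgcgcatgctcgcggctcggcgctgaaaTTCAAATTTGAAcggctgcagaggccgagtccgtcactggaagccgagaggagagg
MKI67: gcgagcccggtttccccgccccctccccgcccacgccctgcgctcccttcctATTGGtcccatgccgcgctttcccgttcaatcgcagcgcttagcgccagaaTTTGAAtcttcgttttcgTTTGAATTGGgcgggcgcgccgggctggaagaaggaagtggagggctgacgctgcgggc
CENPA: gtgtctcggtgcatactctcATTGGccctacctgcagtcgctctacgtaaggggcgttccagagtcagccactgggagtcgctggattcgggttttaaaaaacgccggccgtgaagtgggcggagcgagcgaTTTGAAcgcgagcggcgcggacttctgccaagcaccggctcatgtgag
BUB1B: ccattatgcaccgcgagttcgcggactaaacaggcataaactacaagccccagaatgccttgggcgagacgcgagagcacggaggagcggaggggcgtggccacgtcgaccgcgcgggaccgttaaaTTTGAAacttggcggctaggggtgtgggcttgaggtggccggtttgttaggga
In ANLN 2 TTTGAA matches on opposite strands adjoin each other, and in MKI67 the second TTTGAA overlaps a CCAAT on the other strand. Over the longer window from 250 bases before to 50 after the start, TTTGAA stood in 24 of 35 promoters of the list (68.6%) and in 15.4% of 27305 RefSeq promoters, and CCAAT in 27 of 35 (77.1%) and in 35.7% of all. Among the 19 promoters of members called higher, TTTGAA stood in 14 (73.7%) and CCAAT in 16 (84.2%). These are matches of letters, and no binding was measured.

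ANLN, the actin-binding anillin of the cytokinetic ring, had 36.5, 53.7 and 51.3 TPM with 42 ASO3, against 18.9, 23.8 and 27.9 TPM with 240 ASO3 and 28, 42.8 and 33.1 TPM with the control ASO. All 42 ASO3 libraries exceeded all 240 ASO3 libraries, and the control libraries lay above all 240 ASO3 libraries and overlapped those of 42 ASO3. The difference was 0.98 (SE 0.18, adjusted p = 0.00239). MKI67, the proliferation marker Ki-67, had 37.5, 43.5 and 43.9 TPM with 42 ASO3, against 21.5, 25.8 and 24.6 TPM with 240 ASO3 and 33.2, 39.9 and 34.4 TPM with the control ASO, a difference of 0.79 (SE 0.11, adjusted p = 0.000329). CENPA, the centromeric histone H3, had 46.5, 51.5 and 49.2 TPM with 42 ASO3, against 30.8, 25.3 and 29.2 TPM with 240 ASO3 and 53.5, 47.5 and 48.8 TPM with the control ASO, a difference of 0.78 (SE 0.09, adjusted p = 0.000101), and its control libraries lay with those of 42 ASO3. BUB1B, which encodes the checkpoint kinase BUBR1, had 23.2, 25.1 and 23.2 TPM with 42 ASO3, against 11.6, 15.1 and 15.9 TPM with 240 ASO3 and 16.2, 25.9 and 21.5 TPM with the control ASO, a difference of 0.74 (SE 0.16, adjusted p = 0.00647).

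The other 18 members called ran from PRC1, the antiparallel microtubule bundler, at 0.35 to KIF20A, a cytokinesis kinesin, at 0.74. They included the cyclins CCNB1 (0.73) and CCNA2 (0.62), their kinase CDK1 (0.53), the mitotic kinases AURKA (0.60), PLK1 (0.53), BUB1 (0.67) and TTK (0.70), and the chromosomal passenger subunits INCENP (0.72) and CDCA8 (0.55). CCNB1 ranged from 203 to 210 TPM with 42 ASO3 and from 113 to 141 TPM with 240 ASO3. AURKA ranged from 91.4 to 97.9 TPM with 42 ASO3 and from 59.4 to 66.6 TPM with 240 ASO3. The transcription factor FOXM1, at 0.22 (adjusted p = 0.0914), AURKB, at 0.30 (adjusted p = 0.255), and TOP2A, at 0.37 (adjusted p = 0.155), were not called. Against the control, 1 member was higher and 0 lower with 42 ASO3 (median 0.12), and 0 were higher and 15 lower with 240 ASO3 (median -0.37), where 3.43% and 6.63% of all genes were higher and lower with 42 ASO3 and 6% and 7.82% with 240 ASO3. These 2 comparisons share the control libraries. The number of members called was 10 in the fit to the 6 libraries alone, 14 without 42 ASO3 replicate 4, 31 with the replicate block, 25 without 240 ASO3 replicate 3 and 35 without all replicate 3 libraries, with 0 lower in each.

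**Figure D3:**
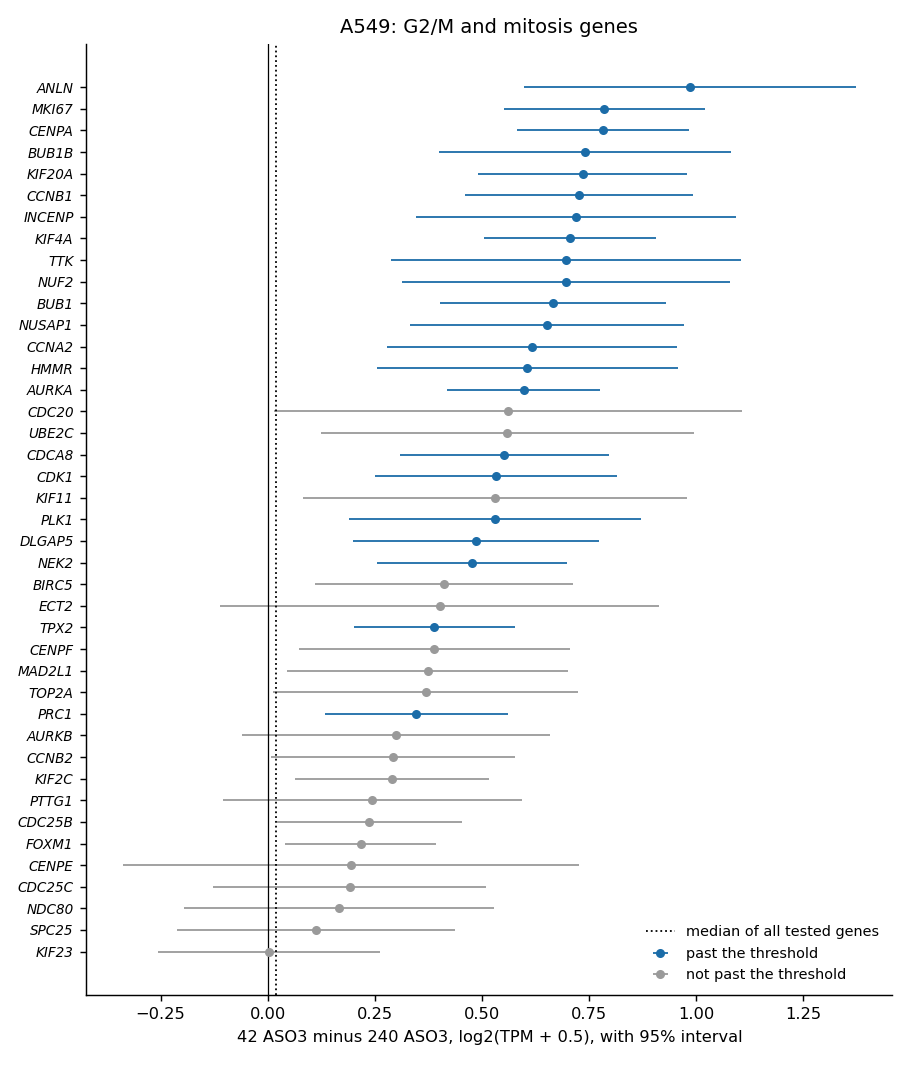
Difference of 42 ASO3 minus 240 ASO3 (log2(TPM + 0.5)) for the 41 genes of the G2/M list in A549, with 95% intervals of the limma fit. All 41 points lie to the right of 0, and the 22 members past the threshold are in blue.

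Genes of the G1/S transition and DNA replication leaned the same way with fewer calls. Of 47 tested members, 8 were higher with 42 ASO3 (17%, against 7.54% of all tested genes) and 0 lower, with a median of 0.23. Besides MCM6, these were POLA1, CLSPN, GINS4, E2F8, MCM10, ORC6 and RFC5. POLA1, the catalytic subunit of DNA polymerase alpha, had 8.9, 8.59 and 8.11 TPM with 42 ASO3, against 2.79, 3.13 and 3.42 TPM with 240 ASO3 and 10.7, 13 and 13.7 TPM with the control ASO, a difference of 1.32 (SE 0.12, adjusted p = 9.48e-06). Both oligonucleotides lay under the control in this gene, with differences of -0.51 with 42 ASO3 (adjusted p = 0.0154) and -1.84 with 240 ASO3 (adjusted p = 6.65e-07). GINS4, a subunit of the replicative helicase complex, had 45.3, 32.2 and 38.4 TPM with 42 ASO3, against 23.3, 19.4 and 16.6 TPM with 240 ASO3 and 43, 41.2 and 43.5 TPM with the control ASO, a difference of 0.95 (SE 0.14, adjusted p = 0.000379). CLSPN, the checkpoint adaptor claspin, averaged 13 ± 2.07 TPM with 42 ASO3 and 6.56 ± 2.26 TPM with 240 ASO3 (SD, n = 3 each), and its call was kept in 12 of 18 alternatives. For the replication list the calls were 16 higher and 4 lower with the replicate block and 5 higher and 0 lower in the fit to the 6 libraries alone. The replication calls were 10 higher and 0 lower without 240 ASO3 replicate 3 and 5 higher and 1 lower without 42 ASO3 replicate 4. The 1 tested replication-dependent histone, H1-2, went the other way, at 47.9, 39.9 and 43.6 TPM with 42 ASO3, against 111, 81 and 78.5 TPM with 240 ASO3, a difference of -1.02 (SE 0.15, adjusted p = 0.000416).

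**Figure D4:**
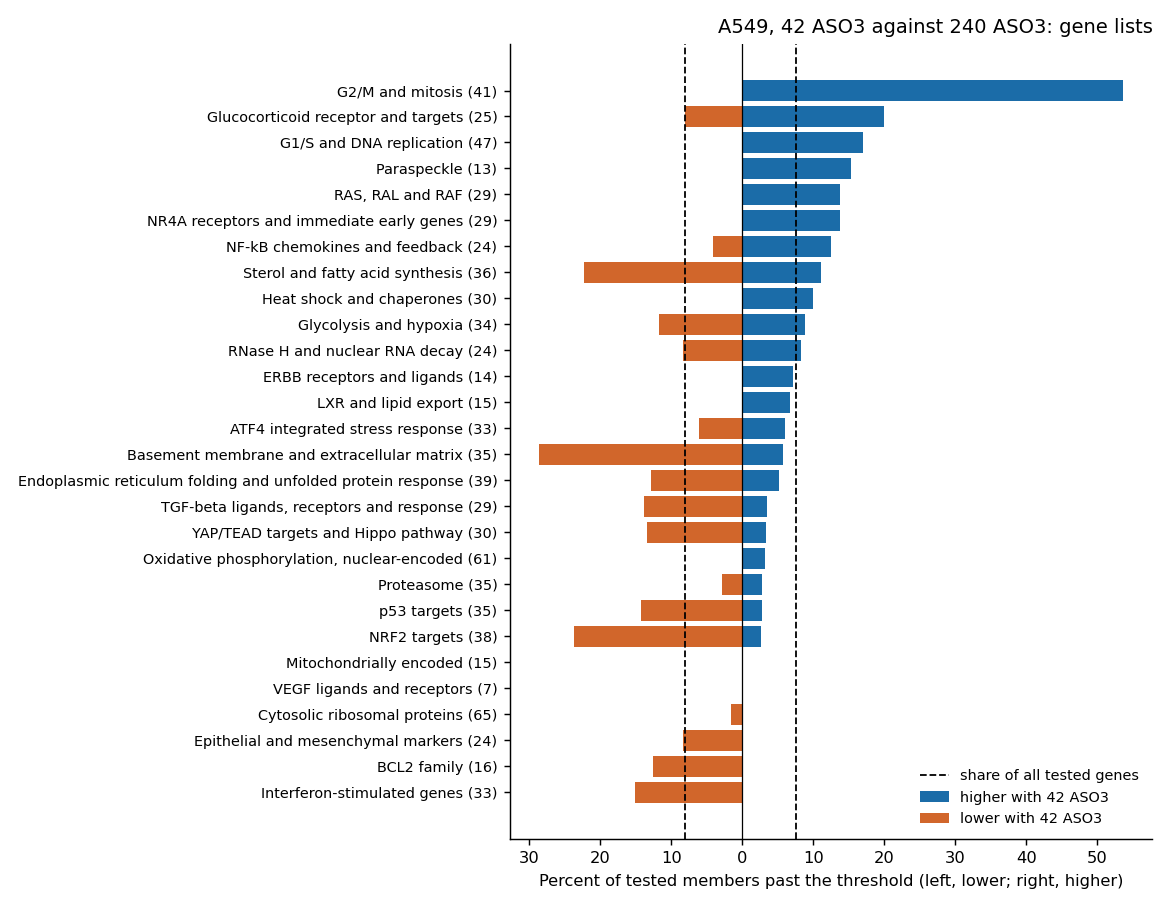
Percent of the tested members of each gene list called higher (right) or lower (left) with 42 ASO3 than with 240 ASO3 in A549, with the number of tested members in brackets, for lists with more than 3 tested members. The dashed lines mark the shares of all tested genes, 7.54% higher and 8.05% lower. The G2/M list reaches furthest to the right and the matrix, NRF2 and sterol lists furthest to the left.

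Of 25 tested genes of the glucocorticoid receptor and its targets, 5 were higher and 2 lower with 42 ASO3 (20% and 8%, against 7.54% and 8.05% of all tested genes), and the list median of 0.02 was the same as that of all genes. Apart from the receptor itself, NCOA1, a coactivator of nuclear receptors, had 8.68, 10.3 and 11.5 TPM with 42 ASO3, against 1.97, 3.65 and 4.18 TPM with 240 ASO3 and 6.36, 10.4 and 9.43 TPM with the control ASO, a difference of 1.54 (SE 0.24, adjusted p = 0.00075). All its 240 ASO3 libraries were below every other library. SGK1, SLC19A2 and FKBP4 were higher by 0.53, 0.81 and 0.51, and PER1 and ANGPTL4 were lower, at -0.84 and -1.22. These 5 calls were kept in 10 to 16 of 17 or 18 alternatives, and ANGPTL4, at 15.3, 6.77 and 7.62 TPM with 42 ASO3, against 33.8, 17.8 and 18.4 TPM with 240 ASO3, was highest in replicate 3 of both groups. For the glucocorticoid list the calls were 6 higher and 5 lower with the replicate block and 2 higher and 1 lower in the fit to the 6 libraries alone. The glucocorticoid calls were 4 higher and 1 lower without 240 ASO3 replicate 3, 3 higher and 2 lower without 42 ASO3 replicate 3, 4 higher and 0 lower without 42 ASO3 replicate 4, 2 higher and 1 lower without 42 ASO3 replicate 5, 3 higher and 0 lower without 240 ASO3 replicate 4 and 3 higher and 1 lower without 240 ASO3 replicate 5.

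The NR4A family of orphan nuclear receptors was tested in a list with other immediate early genes. Of 29 tested members 4 were called higher with 42 ASO3 and 0 lower (13.8% and 0%, against 7.54% and 8.05% of all tested genes), and these 4 were NR4A1, NR4A2, NR4A3 and ZFP36. NR4A1 had 143, 110 and 110 TPM with 42 ASO3, against 59.5, 56 and 52.5 TPM with 240 ASO3 and 62.2, 40.6 and 43.7 TPM with the control ASO, a difference of 1.10 (SE 0.15, adjusted p = 0.000238). The 42 ASO3 libraries stood above both other groups. NR4A2 had 15.1, 15.3 and 17.3 TPM with 42 ASO3, against 7.02, 9.51 and 7.58 TPM with 240 ASO3 and 3.49, 4.62 and 6.26 TPM with the control ASO, a difference of 0.95 (SE 0.19, adjusted p = 0.00418), with the 240 ASO3 libraries above the control libraries too. ZFP36, which destabilises AU-rich mRNAs, had 85.6, 64.1 and 58.5 TPM with 42 ASO3, against 37.1, 40.1 and 43.7 TPM with 240 ASO3 and 48, 37.3 and 34.9 TPM with the control ASO, a difference of 0.76 (SE 0.18, adjusted p = 0.0117). NR4A3 differed by 0.93, and its call was kept in 8 of 17 alternatives. For the immediate early list the calls were 8 higher and 1 lower with the replicate block. The immediate early calls were 3 higher and 0 lower without 240 ASO3 replicate 3. Among 24 tested NF-kB chemokines and feedback genes 3 were higher and 1 lower (12.5% and 4.17%, against 7.54% and 8.05% of all tested genes). ICAM1, a leukocyte adhesion receptor, had 3.66, 2.08 and 1.97 TPM with 42 ASO3, against 0.91, 0.771 and 0.637 TPM with 240 ASO3 and 1.51, 1.01 and 1.36 TPM with the control ASO, a difference of 1.23 (SE 0.24, adjusted p = 0.00359). CXCL5 and CXCL3 were higher by 0.43 and 0.84, and CCL2 was lower, at 5.4, 4.48 and 4.01 TPM with 42 ASO3, against 7.52, 9.05 and 12.5 TPM with 240 ASO3. For the NF-kB list the calls were 7 higher and 4 lower with the replicate block and 1 higher and 1 lower in the fit to the 6 libraries alone. The NF-kB calls were 5 higher and 1 lower without 240 ASO3 replicate 3.

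Of 29 tested genes of the RAS, RAL and RAF list 4 were higher with 42 ASO3 and 0 lower (13.8% and 0%, against 7.54% and 8.05% of all tested genes). After RALA came MRAS, a RAS-related GTPase of the SHOC2 phosphatase complex, with 10.5, 12 and 8.83 TPM with 42 ASO3, against 3.17, 4.17 and 5.18 TPM with 240 ASO3 and 9.38, 9.71 and 10 TPM with the control ASO, a difference of 1.24 (SE 0.17, adjusted p = 0.000299). RASAL2, a RAS GTPase-activating protein, averaged 4.49 ± 0.339 TPM with 42 ASO3 and 2.05 ± 0.914 TPM with 240 ASO3 (SD, n = 3 each), and MAP2K1, the kinase MEK1, differed by 0.33. Their calls were kept in 13 of 17 and 14 of 18 alternatives. For the RAS, RAL and RAF list the calls were 7 higher and 2 lower with the replicate block and 2 higher and 0 lower in the fit to the 6 libraries alone. The RAS, RAL and RAF calls were 4 higher and 0 lower without 240 ASO3 replicate 3. Of 14 ERBB receptors and ligands 1 was called, the ligand TGFA (7.14% higher, against 7.54% of all tested genes). TGFA had 10.5, 9.96 and 11 TPM with 42 ASO3, against 4.16, 6.56 and 5.73 TPM with 240 ASO3 and 7.04, 9.23 and 10.9 TPM with the control ASO, a difference of 0.90 (SE 0.20, adjusted p = 0.00873). Of 7 tested VEGF ligands and receptors 0 were called, and the nearest were VEGFC, at 0.61 (adjusted p = 0.108), and NRP2, at -0.50 (adjusted p = 0.18). With the replicate block VEGFC passed the threshold (adjusted p = 0.00482), and NRP2 passed it without 240 ASO3 replicate 3, at -0.79 (adjusted p = 0.0187).

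Genes of the basement membrane and extracellular matrix that were called were mostly lower with 42 ASO3. Of 35 tested members 10 were lower (28.6%, against 8.05% of all tested genes) and 2 higher, and the median was -0.32. The summed level of the list was 772 to 866 TPM with 42 ASO3, 1068 to 1112 TPM with 240 ASO3 and 1395 to 1442 TPM with the control ASO, so that both oligonucleotides lay under the control. COL7A1, the anchoring fibril collagen, had 17.1, 18.2 and 18.4 TPM with 42 ASO3, against 51, 36.9 and 32 TPM with 240 ASO3 and 42.7, 26.6 and 26.2 TPM with the control ASO, a difference of -1.11 (SE 0.19, adjusted p = 0.00144). COL4A1, the main collagen IV chain, had 2.94, 2.28 and 2.82 TPM with 42 ASO3, against 4.69, 7.01 and 6.36 TPM with 240 ASO3 and 6.72, 11.2 and 9.77 TPM with the control ASO, a difference of -1.02 (SE 0.19, adjusted p = 0.00296). Among the laminin chains LAMA5 (76.2 to 110 TPM with 42 ASO3 and 141 to 175 TPM with 240 ASO3) and LAMB2 (47.5 to 59.5 TPM with 42 ASO3 and 74.8 to 105 TPM with 240 ASO3) were lower, with differences of -0.78 and -0.83. The heparan sulfate proteoglycans HSPG2 and AGRN differed by -0.74 and -0.56, and the collagen-modifying enzymes P4HA2 and PLOD2 by -0.70 and -0.64.

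Chains of laminin-332 differed in direction. While LAMB3 was lower with 42 ASO3, LAMA3 was higher, with 11.2, 11.1 and 8.96 TPM with 42 ASO3, against 8.33, 6.49 and 6.93 TPM with 240 ASO3 and 18.2, 16.9 and 17.8 TPM with the control ASO, a difference of 0.49 (SE 0.12, adjusted p = 0.0145) kept in 13 of 18 alternatives. COL4A6 was the other member called higher, at 7.49, 6.93 and 7.32 TPM with 42 ASO3, against 4.03, 5.17 and 5.08 TPM with 240 ASO3, a difference of 0.56 (SE 0.13, adjusted p = 0.00987). For the matrix list the calls were 4 higher and 17 lower with the replicate block and 0 higher and 8 lower in the fit to the 6 libraries alone. The matrix calls were 3 higher and 14 lower without 240 ASO3 replicate 3.

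Of 29 tested genes of the TGF-beta list 1 was higher and 4 were lower with 42 ASO3 (3.45% and 13.8%, against 7.54% and 8.05% of all tested genes). SMAD3, the signal transducer of TGF-beta and activin receptors, had 51.9, 37.7 and 36.3 TPM with 42 ASO3, against 91.5, 114 and 128 TPM with 240 ASO3 and 99.8, 106 and 129 TPM with the control ASO, a difference of -1.40 (SE 0.15, adjusted p = 5.22e-05). The 42 ASO3 libraries lay under all others, and 240 ASO3 differed from the control by -0.01 (adjusted p = 0.98). TGFBI and LTBP3 were lower, at -0.79 and -0.71, and the inhibitor of differentiation ID1 was higher, at 0.81, with calls kept in 14 to 15 of 18 alternatives. For the TGF-beta list the calls were 1 higher and 10 lower with the replicate block and 0 higher and 2 lower in the fit to the 6 libraries alone. The TGF-beta calls were 1 higher and 5 lower without 240 ASO3 replicate 3 and 1 higher and 2 lower without 42 ASO3 replicate 4 or 42 ASO3 replicate 5.

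Of 30 tested genes of the Hippo pathway and its YAP/TEAD targets 1 was higher and 4 were lower (3.33% and 13.3%, against 7.54% and 8.05% of all tested genes). TEAD1, a DNA-binding partner of YAP, had 5.23, 5.34 and 5.11 TPM with 42 ASO3, against 9.08, 23.1 and 22.4 TPM with 240 ASO3 and 12.8, 30.1 and 36.7 TPM with the control ASO, a difference of -1.59 (SE 0.38, adjusted p = 0.0114). Its 42 ASO3 libraries lay close together and below all others, and replicate 3 was the lowest library of both other groups. NF2, the tumour suppressor merlin, had 6.06, 3.59 and 3.58 TPM with 42 ASO3, against 10, 11.5 and 12.7 TPM with 240 ASO3 and 10.2, 12.2 and 10.1 TPM with the control ASO, a difference of -1.31 (SE 0.18, adjusted p = 0.000265). STK3, the Hippo kinase MST2, had 8.64, 13.8 and 13.1 TPM with 42 ASO3, against 2.59, 4.19 and 4.39 TPM with 240 ASO3 and 10.9, 15 and 16.1 TPM with the control ASO, a difference of 1.55 (SE 0.22, adjusted p = 0.000405). The receptor kinase AXL and the ectonucleotidase NT5E were lower, at -0.69 and -0.55. For the Hippo list the calls were 3 higher and 6 lower with the replicate block. The Hippo calls were 1 higher and 5 lower without 240 ASO3 replicate 3. Of 24 epithelial and mesenchymal markers 0 were higher and 2 lower (0% and 8.33%, against 7.54% and 8.05% of all tested genes). The tight junction gene CLDN4 had 5.17, 4.05 and 4.75 TPM with 42 ASO3, against 11.4, 12 and 10.8 TPM with 240 ASO3 and 3.35, 3.1 and 2.42 TPM with the control ASO. The integrin ITGA5 had 19.4, 15.5 and 15.6 TPM with 42 ASO3, against 35.9, 26 and 27.1 TPM with 240 ASO3. Their differences were -1.21 and -0.79. For the epithelial and mesenchymal list the calls were 2 higher and 6 lower with the replicate block. The epithelial and mesenchymal calls were 0 higher and 2 lower without 240 ASO3 replicate 3.

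Genes of sterol and fatty acid synthesis were called in both directions. Of 36 tested members 4 were higher (11.1%) and 8 lower (22.2%) with 42 ASO3, against 7.54% and 8.05% of all tested genes, with a median of -0.17. The lower genes were TM7SF2, ACACA, FDPS, MVD, MVK, PMVK, ACAT2 and DHCR7, most of them enzymes of the mevalonate and cholesterol route. TM7SF2, a sterol reductase, had 26.7, 24.7 and 24.7 TPM with 42 ASO3, against 59.6, 49.7 and 54.9 TPM with 240 ASO3 and 24.3, 24.2 and 20.7 TPM with the control ASO, a difference of -1.09 (SE 0.13, adjusted p = 9.03e-05). FDPS, farnesyl diphosphate synthase, had 242, 202 and 211 TPM with 42 ASO3, against 542, 343 and 348 TPM with 240 ASO3 and 264, 221 and 199 TPM with the control ASO, a difference of -0.88 (SE 0.16, adjusted p = 0.00232). In both, the control libraries were nearer to those of 42 ASO3. ACACA, which makes malonyl-CoA, had 30.5, 22 and 25 TPM with 42 ASO3, against 49.8, 47 and 50 TPM with 240 ASO3 and 45.5, 54 and 58.9 TPM with the control ASO, a difference of -0.92 (SE 0.13, adjusted p = 0.000375), and here the control libraries were nearer to those of 240 ASO3. MVD averaged 72.2 ± 8.43 TPM with 42 ASO3 and 118 ± 23.4 TPM with 240 ASO3 (SD, n = 3 each), and both values were above the control mean.

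The higher members included ELOVL6, ELOVL5 and ACSS2. ELOVL6, a fatty acid elongase, had 103, 125 and 105 TPM with 42 ASO3, against 56.8, 39.8 and 32.1 TPM with 240 ASO3 and 65.3, 48.8 and 55 TPM with the control ASO, a difference of 1.39 (SE 0.20, adjusted p = 0.00048), and the 42 ASO3 libraries lay above all others. ELOVL5, another elongase, and ACSS2, an acetyl-CoA synthetase, differed by 0.38 and 0.28, and their calls were kept in 8 of 18 and 7 of 18 alternatives. The regulator SREBF2, at -0.18 (adjusted p = 0.422), was not called. For the lipid synthesis list the calls were 7 higher and 13 lower with the replicate block and 2 higher and 4 lower in the fit to the 6 libraries alone. The lipid synthesis calls were 1 higher and 7 lower without 240 ASO3 replicate 3, 2 higher and 6 lower without 42 ASO3 replicate 4, 1 higher and 5 lower without 42 ASO3 replicate 5 and 2 higher and 7 lower without 240 ASO3 replicate 4 or 240 ASO3 replicate 5. Of 15 genes of the LXR list 1 was higher and 0 lower (6.67% and 0%, against 7.54% and 8.05% of all tested genes). In the fit to the 6 libraries alone 0 were called. The gene called was APOE, an apolipoprotein, with 375, 189 and 217 TPM with 42 ASO3, against 162, 87.5 and 82.8 TPM with 240 ASO3 and 52.9, 31.2 and 30.6 TPM with the control ASO. Its difference was 1.24 (SE 0.31, adjusted p = 0.0152), kept in 14 of 18 alternatives, and replicate 3 was the highest library of each group.

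Of 35 tested p53 targets 1 was higher and 5 were lower with 42 ASO3 (2.86% and 14.3%, against 7.54% and 8.05% of all tested genes), with a median of -0.13. TP53I3, an oxidoreductase, had 134, 108 and 118 TPM with 42 ASO3, against 360, 259 and 262 TPM with 240 ASO3 and 157, 109 and 109 TPM with the control ASO, a difference of -1.28 (SE 0.16, adjusted p = 0.000148). DDB2, which recognises ultraviolet damage in DNA, had 58.3, 55 and 58 TPM with 42 ASO3, against 118, 77.4 and 77.7 TPM with 240 ASO3 and 65.4, 56.5 and 54.3 TPM with the control ASO, a difference of -0.64 (SE 0.15, adjusted p = 0.00987). The proapoptotic BBC3 (PUMA) and the cell cycle inhibitor CDKN1A were lower, at -0.61 and -0.37. CDKN1A had 193, 161 and 172 TPM with 42 ASO3, against 247, 222 and 211 TPM with 240 ASO3 and 164, 132 and 136 TPM with the control ASO, and its call was kept in 12 of 18 alternatives. ZMAT3 was higher, with 4.03, 7.63 and 6.95 TPM with 42 ASO3, against 1.51, 3.13 and 3.16 TPM with 240 ASO3, kept in 11 of 17. Against the control, 5 members were higher and 1 lower with 42 ASO3 and 10 were higher and 0 lower with 240 ASO3, where 3.43% and 6.63% of all genes were higher and lower with 42 ASO3 and 6% and 7.82% with 240 ASO3, with the control libraries shared. For the p53 list the calls were 3 higher and 8 lower with the replicate block and 0 higher and 2 lower in the fit to the 6 libraries alone. The p53 calls were 0 higher and 4 lower without 240 ASO3 replicate 3, 0 higher and 2 lower without 42 ASO3 replicate 4 and 0 higher and 3 lower without 42 ASO3 replicate 5. Of 16 tested genes of the BCL2 family 0 were higher and 2 lower, BBC3 and BAD (0% and 12.5%, against 7.54% and 8.05% of all tested genes). BAD, a sensitiser of the family, had 74.5, 59.3 and 71 TPM with 42 ASO3, against 166, 104 and 106 TPM with 240 ASO3.

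NRF2 targets that were called were lower with 42 ASO3, with 1 exception. Of 38 tested members 9 were lower (23.7%, against 8.05% of all tested genes) and 1 higher, with a median of -0.13. AKR1C1 and AKR1C3, aldo-keto reductases that are among the most abundant mRNAs here, had 1124, 912 and 1013 TPM with 42 ASO3, against 1949, 1550 and 1632 TPM with 240 ASO3 for AKR1C1 and 1976, 1869 and 1996 TPM with 42 ASO3, against 3508, 2590 and 2789 TPM with 240 ASO3 for AKR1C3. Their differences were -0.75 (SE 0.16, adjusted p = 0.00727) and -0.59 (SE 0.13, adjusted p = 0.00896), and AKR1C2 differed by -0.40. These paralogues are nearly identical in sequence, so reads may be shared out among them. PIR, the iron-binding pirin, had 60, 55.8 and 59.8 TPM with 42 ASO3, against 117, 86.9 and 90.3 TPM with 240 ASO3 and 83.9, 83.5 and 73.3 TPM with the control ASO, a difference of -0.73 (SE 0.11, adjusted p = 0.000578). CYP4F11, TRIM16L, TRIM16, ABCB6 and ABCC1 were lower, with differences of -0.77 to -0.32, and the malic enzyme ME1 was higher by 0.33, kept in 8 of 18 alternatives. For the NRF2 list the calls were 5 higher and 14 lower with the replicate block and 0 higher and 4 lower in the fit to the 6 libraries alone. The NRF2 calls were 2 higher and 9 lower without 240 ASO3 replicate 3 and 0 higher and 6 lower without 42 ASO3 replicate 5 or 240 ASO3 replicate 5.

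Of 33 tested interferon-stimulated genes 0 were higher and 5 lower with 42 ASO3 (0% and 15.2%, against 7.54% and 8.05% of all tested genes), with a median of -0.16. IFI35 had 45.4, 41 and 50.3 TPM with 42 ASO3, against 88, 65 and 62.1 TPM with 240 ASO3 and 38.6, 37.4 and 37 TPM with the control ASO, a difference of -0.64 (SE 0.12, adjusted p = 0.00301). IRF9, the DNA-binding subunit of ISGF3, had 17.1, 20 and 16.5 TPM with 42 ASO3, against 27.8, 27.1 and 24.2 TPM with 240 ASO3 and 21.4, 19 and 15.6 TPM with the control ASO, a difference of -0.55 (SE 0.13, adjusted p = 0.0116). IRF7, a transcription factor of interferon genes, and DDX58, the RNA sensor RIG-I, were lower, at -0.68 and -0.64, and PSMB9 differed by -0.48. Against the control, 7 members were higher and 0 lower with 42 ASO3 (median 0.27), and 13 were higher and 0 lower with 240 ASO3 (median 0.51), again with shared control libraries and against 3.43% and 6.63% of all genes higher and lower with 42 ASO3 and 6% and 7.82% with 240 ASO3. For the interferon list the calls were 2 higher and 9 lower with the replicate block and 0 higher and 0 lower in the fit to the 6 libraries alone. The interferon calls were 0 higher and 4 lower without 240 ASO3 replicate 3 and 0 higher and 2 lower without 42 ASO3 replicate 4 or 42 ASO3 replicate 5.

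Of 39 tested genes of folding in the endoplasmic reticulum and the unfolded protein response 2 were higher and 5 lower (5.13% and 12.8%, against 7.54% and 8.05% of all tested genes), with a median of -0.08. CRELD2, a folding factor induced by stress in that organelle, had 17.7, 13.4 and 14.3 TPM with 42 ASO3, against 30.5, 22.4 and 22.7 TPM with 240 ASO3 and 36, 31.2 and 25.4 TPM with the control ASO, a difference of -0.71 (SE 0.15, adjusted p = 0.0071). MANF, HYOU1, EDEM2 and HSPA5 were lower, at -0.73, -0.39, -0.37 and -0.30, and the lectin chaperone CANX was higher, at 0.87. For the folding list the calls were 5 higher and 8 lower with the replicate block and 0 higher and 0 lower in the fit to the 6 libraries alone. The folding calls were 2 higher and 2 lower without 240 ASO3 replicate 3 or 42 ASO3 replicate 3 or 240 ASO3 replicate 5 and 1 higher and 1 lower without 42 ASO3 replicate 4 or 42 ASO3 replicate 5. Of 33 genes of the ATF4 response 2 were higher and 2 lower (6.06% and 6.06%, against 7.54% and 8.05% of all tested genes). WARS1, the tryptophanyl-tRNA synthetase, had 147, 121 and 132 TPM with 42 ASO3, against 86.2, 85.8 and 83.2 TPM with 240 ASO3 and 88.7, 100 and 91.4 TPM with the control ASO, a difference of 0.64 (SE 0.12, adjusted p = 0.00359), and ALDH18A1, PCK2 and CBS differed by 0.36, -0.78 and -0.68. The calls of PCK2 and CBS were kept in 11 of 18 and 8 of 18 alternatives. For the ATF4 list the calls were 4 higher and 2 lower with the replicate block and 1 higher and 3 lower in the fit to the 6 libraries alone. With the block in the 6 libraries alone they were 1 higher and 5 lower. The ATF4 calls were 2 higher and 0 lower without 240 ASO3 replicate 3 or 42 ASO3 replicate 4 or 42 ASO3 replicate 5 or 240 ASO3 replicate 5. Of 30 tested heat shock genes and chaperones 3 were higher and 0 lower (10% and 0%, against 7.54% and 8.05% of all tested genes). HSPA14 had 44.8, 50.6 and 51.1 TPM with 42 ASO3, against 35.6, 30.8 and 33.4 TPM with 240 ASO3 and 39.1, 37.4 and 34.3 TPM with the control ASO, a difference of 0.55 (SE 0.10, adjusted p = 0.00218), and FKBP4 and HSPA9 differed by 0.51 and 0.37, with calls kept in 13 of 18 and 11 of 18 alternatives. For the heat shock list the calls were 7 higher and 2 lower with the replicate block. The heat shock calls were 3 higher and 0 lower without 240 ASO3 replicate 3 and 1 higher and 0 lower without 42 ASO3 replicate 5 or 240 ASO3 replicate 4.

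Of 34 tested genes of glycolysis and hypoxia 3 were higher and 4 lower (8.82% and 11.8%, against 7.54% and 8.05% of all tested genes), and the median was 0.03. BNIP3, a mitophagy receptor induced by hypoxia, had 72.8, 70 and 73 TPM with 42 ASO3, against 39.8, 43.8 and 41.5 TPM with 240 ASO3 and 47.3, 48.2 and 48.7 TPM with the control ASO, a difference of 0.78 (SE 0.09, adjusted p = 8.24e-05). PFKM, the muscle-type phosphofructokinase, had 56.4, 59.2 and 49.1 TPM with 42 ASO3, against 30.3, 37.5 and 34 TPM with 240 ASO3, a difference of 0.69 (SE 0.13, adjusted p = 0.0032). ALDOC, aldolase C, had 12.3, 10.6 and 11.3 TPM with 42 ASO3, against 31.5, 21.9 and 20.9 TPM with 240 ASO3 and 5.8, 5.7 and 5.96 TPM with the control ASO, a difference of -1.07 (SE 0.15, adjusted p = 0.000389), with both oligonucleotides above the control. NDRG1 and HILPDA were lower, at -0.67 and -0.41, beside ANGPTL4, and PDK1 was higher, at 0.69. For the glycolysis list the calls were 4 higher and 9 lower with the replicate block and 2 higher and 2 lower in the fit to the 6 libraries alone. The glycolysis calls were 2 higher and 3 lower without 240 ASO3 replicate 3, 2 higher and 2 lower without 42 ASO3 replicate 4 or 240 ASO3 replicate 4 and 3 higher and 2 lower without 240 ASO3 replicate 5. Genes of oxidative phosphorylation were mostly uncalled. Of 61 nuclear-encoded members 2 were higher and 0 lower (3.28% and 0%, against 7.54% and 8.05% of all tested genes). Both called genes encode membrane anchors of succinate dehydrogenase. SDHD had 61.8, 67.2 and 71 TPM with 42 ASO3, against 42.3, 39.9 and 38.2 TPM with 240 ASO3 and 59.8, 63 and 61.1 TPM with the control ASO, a difference of 0.72 (SE 0.09, adjusted p = 8.56e-05), and SDHC had 170, 170 and 181 TPM with 42 ASO3, against 125, 106 and 106 TPM with 240 ASO3 and 164, 156 and 142 TPM with the control ASO, a difference of 0.63 (SE 0.09, adjusted p = 0.000549).

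Of 15 mitochondrially encoded genes 0 were called, and the nearest were MT-RNR2, at 0.66 (adjusted p = 0.0682), and MT-ND4L, at 0.80 (adjusted p = 0.113). With the replicate block over 5 groups they passed the threshold, with adjusted p of 0.0029 and 0.0201, but not with the block in the 6 libraries alone (0.0583 and 0.129) or with any 1 library left out. Both also passed with array weights (adjusted p = 0.000329 and 0.0398), and MT-RNR2 passed without all replicate 3 libraries (adjusted p = 0.00761). Of 65 cytosolic ribosomal protein genes 1 was called, RPL12 (1.54% lower, against 8.05% of all tested genes). It was lower at 1736, 1576 and 1702 TPM with 42 ASO3, against 3493, 2272 and 2463 TPM with 240 ASO3. Of 35 proteasome genes 1 was higher and 1 lower (2.86% each, against 7.54% and 8.05% of all tested genes). PSMB4, a beta subunit of the core particle, had 172, 140 and 143 TPM with 42 ASO3, against 537, 356 and 348 TPM with 240 ASO3 and 457, 393 and 347 TPM with the control ASO, a difference of -1.42 (SE 0.16, adjusted p = 6.21e-05), and its 42 ASO3 libraries were below all others. PSMD12 of the regulatory particle differed by 0.52.

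Of 24 genes of RNase H and nuclear RNA decay, the machinery on which gapmers draw, 2 were higher and 2 lower (8.33% each, against 7.54% and 8.05% of all tested genes). EXOSC7, a core subunit of the RNA exosome, had 42.1, 44.7 and 41 TPM with 42 ASO3, against 27.7, 18 and 24.1 TPM with 240 ASO3 and 42.9, 39.8 and 35.5 TPM with the control ASO, a difference of 0.88 (SE 0.13, adjusted p = 0.00059). RNASEH2B, a subunit of RNase H2, differed by 0.53, kept in 13 of 18 alternatives, and SKIV2L and DXO differed by -0.66 and -0.65. Of 13 paraspeckle genes 2 were higher and 0 lower (15.4% and 0%, against 7.54% and 8.05% of all tested genes). NUDT21, a cleavage factor of polyadenylation, had 120, 109 and 107 TPM with 42 ASO3, against 65.7, 76 and 85.2 TPM with 240 ASO3 and 81.5, 96.6 and 95 TPM with the control ASO, a difference of 0.57 (SE 0.11, adjusted p = 0.00286), and SFPQ differed by 0.29, kept in 9 of 18 alternatives. With the replicate block the calls were 5 higher and 2 lower for the RNA decay list, 4 and 2 for paraspeckles, 1 and 3 for the proteasome, 2 and 2 for oxidative phosphorylation, 3 and 0 for the mitochondrially encoded genes, 1 and 4 for the BCL2 family, 2 and 1 each for the ERBB and LXR lists and 1 and 0 for VEGF, and 0 and 2 for the lung adenocarcinoma and epithelium markers.

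Markers of the cell line were checked next. Of 9 tested markers of lung adenocarcinoma and epithelium 0 were called, and their summed level was 9142 to 9955 TPM with 42 ASO3, 9302 to 11550 TPM with 240 ASO3 and 12420 to 13350 TPM with the control ASO, nearly all of it from keratins and ALDH1A1. The alveolar markers SFTPA1 and NKX2-1 were at or near 0 in all 6 libraries, where A549 is labelled an adenocarcinoma line. NAPSA, another marker of this list, reached the filter and was not called, at -0.35. Of 6 leukocyte markers the defining PTPRC and CD3E were at 0 in all 6 libraries, while CD68 and ITGAM were lower with 42 ASO3, at -0.57 and -1.01. Their summed level, nearly all CD68 and CD14, was 58.6 to 76.0 TPM with 42 ASO3, 83.6 to 102 TPM with 240 ASO3 and 37.4 to 42.9 TPM with the control ASO. Of 6 endothelial markers 0 reached the filter, and 0 of 2 squamous, 0 of 2 neuroendocrine and 0 of 1 tested fibroblast markers were called.

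The same comparison in NCI-H460 rested on 2 libraries per group. Of 13774 genes tested there, 511 were called higher and 2909 lower (24.8% together), with a median of -0.18 over all genes. After median-of-ratios scaling the median was 0 and the calls were 1295 higher and 1537 lower. Leaving out 1 library gave 1547 calls (without 42 ASO3 replicate 1), 5469 (without 42 ASO3 replicate 2), 992 (without 240 ASO3 replicate 1) or 2181 (without 240 ASO3 replicate 2). All 24 genes named in A549 had the same sign in NCI-H460, and 22 of them were called, 11 in each direction. Of the 24, CNNM1, at 0.50 (adjusted p = 0.207), and RPL22P2, at -0.53 (adjusted p = 0.553), were not called there. The sign was the same in 48.4% of all 12760 genes tested in both lines and in 65% of the 1964 of these called in A549, 47.7% of the higher and 82.5% of the lower. With the NCI-H460 median of -0.17 over these genes subtracted, it was the same in 65.1% of the higher and 65.2% of the lower. In NCI-H460, PITRM1 had 5.66 and 7.77 TPM with 42 ASO3, against 42 and 46.1 TPM with 240 ASO3, a difference of -2.64. VCL had 4.34 and 7.63 TPM with 42 ASO3, against 46.8 and 42.6 TPM with 240 ASO3, a difference of -2.85. MCM6 had 40.6 and 46.4 TPM with 42 ASO3, against 13.8 and 10.3 TPM with 240 ASO3, a difference of 1.82. Each pair of libraries lay apart from the other pair in these 3 genes.

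The 12 genes higher with 42 ASO3 all had smaller differences in NCI-H460. The difference between lines, tested as an interaction over 14769 genes, was called in 11 of them and in 4 of the 12 lower genes (13.4% of all tested genes were called). These genes were chosen for large differences in A549, so the count is a description. After median-of-ratios scaling BCAP31 was not called (adjusted p = 0.146), and neither was CAMK1 (adjusted p = 0.316). NR3C1 differed between the oligonucleotides by 3.18 in A549 and by 0.83 in NCI-H460, a difference between lines of 2.35 (adjusted p = 0.00502). In NCI-H460 it had 3.04 and 4.93 TPM with 42 ASO3, against 2.28 and 1.69 TPM with 240 ASO3. The smallest of these 12 differences in A549, that of SEMA4D, stood at 2.29 in A549 and 0.85 in NCI-H460. TEAD1, SMAD3, ELOVL6 and APOE were called in the same direction in both lines, with differences of -1.59, -1.40, 1.39 and 1.24 in A549 and -2.78, -1.35, 1.32 and 1.58 in NCI-H460. Not all named list members kept their sign. GINS4 stood at 0.95 in A549 and -0.76 in NCI-H460, and MVD at -0.70 and 0.51.

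With the values as deposited, the mitotic list differed between the lines. Of 41 members 2 were higher and 8 lower there, against 3.71% and 21.1% of all genes tested in that line, with a median of -0.07 against -0.17 over all genes tested in both lines. The interaction was called in 21 of 41 members, all with the larger value in A549. Over all tested genes, 11.5% were called in that direction and 1.98% in the other, and the median of all genes also differed between lines, by 0.17. These calls over all genes, 1694 and 292, became 640 and 545 after median-of-ratios scaling. The list was not counted after that scaling. Of its named members, ANLN, BUB1B and CENPA were then called (adjusted p = 0.0453, 0.00804 and 0.049), and MKI67 was not (adjusted p = 0.217). BUB1B stood at 0.74 in A549 and -0.48 in NCI-H460, a difference between lines of 1.22 (adjusted p = 0.00297). Of the matrix list 1 member was higher and 15 of 30 were lower in NCI-H460, with a median of -0.41. Of the p53 targets 0 were higher and 17 of 33 lower, with a median of -0.43, and CDKN1A differed by -0.95 (adjusted p = 0.000381). Over 12760 genes tested in both lines Pearson's r of the differences was 0.116. This value is across genes, which are not independent replicates and share their libraries.

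**Figure D5:**
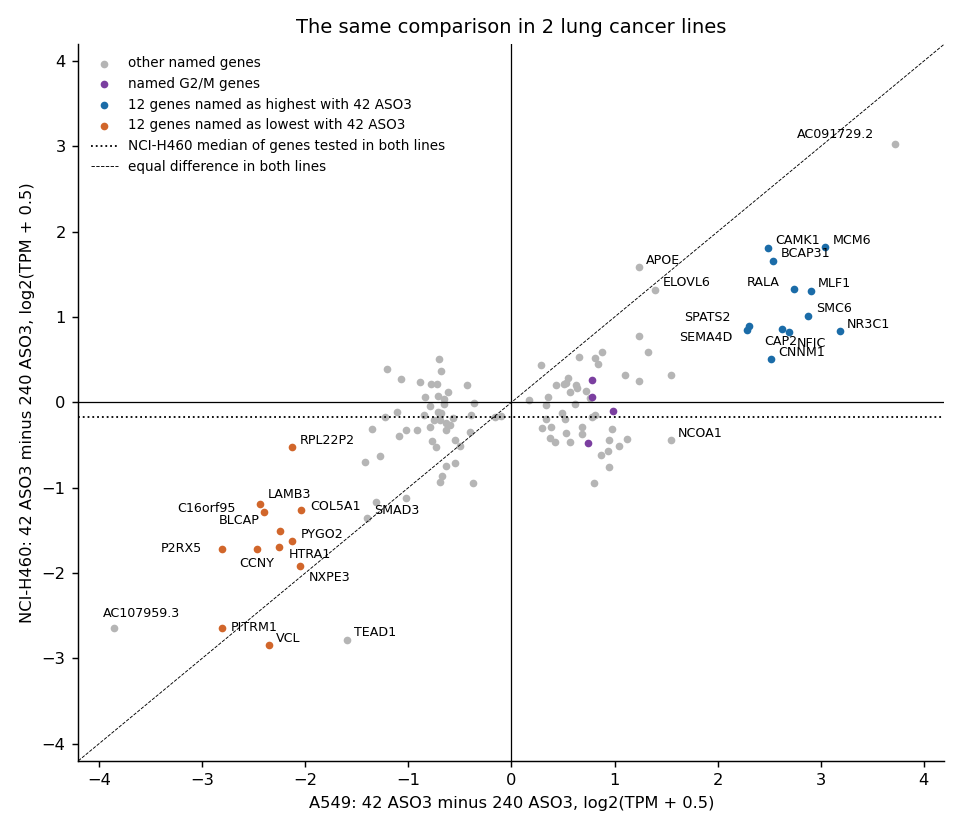
Difference of 42 ASO3 minus 240 ASO3 (log2(TPM + 0.5)) in A549 (horizontal, n = 3 libraries per group) and NCI-H460 (vertical, n = 2 per group) for the named genes tested in both lines. The 12 named genes of each direction fall in the same quadrant in both lines, those higher with 42 ASO3 below the dashed line of equal difference, and the 4 named G2/M genes lie between -0.48 and 0.26 in NCI-H460.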

How the data were processed

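RNA sequencing libraries of total RNA were quantified, per the submitters' processing notes, with kallisto and sleuth 0.30 on hg38. No source used here names the annotation release or the strand setting. The deposited signal is TPM per gene name, 1 column per library, rescaled between libraries by the authors. The log2 fold changes and q-values against the control are those of the authors' deposited tables, and their p-value method is not stated.

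From the TPM, log2(TPM + 0.5) was fitted for 14740 of 59427 names that averaged 1 TPM or more in the A549 libraries, with limma 3.58.1 (R 4.3.3) over 5 A549 groups (10 residual degrees of freedom), moderated with a trend and adjusted by Benjamini-Hochberg. NCI-H460 and the difference between lines were fitted alike. On simulated data of 14740 genes for the A549 comparison, 71% of 100 genes changed by 1 on the log2 scale and 96% of 100 changed by 2 were called, with 3 false calls. The simulated noise was independent between libraries, with 1 spread per gene in all groups, and the changed genes averaged above 1 on that scale. It held no library that stood apart and no deviations shared by replicate number, so these rates need not hold for the real libraries. Same-numbered A549 libraries deviated together across genes (correlations 0.368, 0.225 and 0.15 for replicates 3, 4 and 5), so the numbers were taken as pairing them, and the fit with a replicate block stands beside the main one where it moves a count of calls by over 1.5 times. Libraries of different number also correlated, 42 ASO3 replicate 4 with 240 ASO3 replicate 5 at 0.178 and 42 ASO3 replicate 5 with 240 ASO3 replicate 4 at 0.105, so these correlations did not tell the numbers 4 and 5 apart. Other alternatives were the pseudocount, the filter, scaling, array weights and each library left out.

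Genes were named as the 12 called in each direction with the largest difference, no overlap between groups and at least 5 TPM in the higher group, and as up to 4 called members per direction of each gene list, or up to 2 by size where none was called. Other list members given were chosen after their values were seen, and some genes are not reported here. The comparison, members and lists were chosen with earlier results of these data known. Sequences are from RefSeq (GRCh38.p14), where 35 of 41 mitotic genes matched. Tables were read with Python 3.11.15 and pandas 2.3.3.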

Additional observations from a re-analysis of the deposited data

Results flagged for a closer look

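The difference of 42 ASO3 minus 240 ASO3 was set between A549 and NCI-H460 as an interaction in 1 limma fit over both lines. Of 132 named genes with this test, 57 passed with the values as deposited, and 43 passed also after median-of-ratios scaling, with adjusted p of 0.000317 to 0.0459. Over all 14769 genes, 1986 (13.4%) passed as deposited and 1185 after that scaling. Most of the named genes were chosen by their A549 differences, which this test uses again, so the counts are a description. Of these 43, 27 had the higher value in A549 and 16 the lower, and 34 were still called without the A549 240 ASO3 replicate 3 library, 27 of the higher and 7 of the lower. The genes that lost the call there were ACACA, BBC3, C16orf95, CRELD2, H1-2, MANF, P2RX5, PCK2 and TM7SF2, with adjusted p of 0.0639 to 0.093. Each value given next is the A549 difference minus the NCI-H460 difference on the log2(TPM + 0.5) scale.

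Among the genes with the largest A549 differences on the side higher with 42 ASO3, the values were NR3C1 2.35, CNNM1 2.01, NFIC 1.88, SMC6 1.86, CAP2 1.76, MLF1 1.59, SEMA4D 1.44, SPATS2 1.41, RALA 1.41, MCM6 1.23. Among the list members they were NCOA1 1.99, GINS4 1.71, ZMAT3 1.55, RASAL2 1.55, NR4A3 1.51, CANX 1.49, NR4A2 1.39, STK3 1.23, BUB1B 1.22, ANLN 1.08, PFKM 1.06, COL4A6 1.02, PDK1 0.97, BNIP3 0.95, CXCL5 0.89, HSPA9 0.79, CENPA 0.72. CENPA, BUB1B and ANLN belong to the mitotic list, GINS4 to the replication list, and NR4A2 and NR4A3 to the NR4A family.

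On the side lower in A549, the values among the genes with the largest differences were BLCAP -0.73, P2RX5 -1.09, C16orf95 -1.11, LAMB3 -1.25. Among the list members they were ACACA -0.60, H1-2 -0.70, TM7SF2 -0.70, BBC3 -0.73, CRELD2 -0.78, MANF -0.94, PCK2 -0.99, IRF7 -1.05, FDPS -1.12, MVD -1.21, ALDOC -1.35, CLDN4 -1.60. FDPS, MVD, TM7SF2 and ACACA are genes of lipid synthesis. The tight junction gene CLDN4 differed by -1.21 in A549 and 0.39 in NCI-H460, and the glycolytic ALDOC by -1.07 and 0.28.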

How the results depend on the processing

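All 24 genes with the largest differences kept their direction and their call in each of 18 alternatives. They were chosen for large differences without overlap in these same libraries, so this is a description. Of 122 named genes called, 67 kept the call in every alternative, 19 lost it in 1 or 2 and 36 in 3 or more. The A549 count of 2298 (1112 higher, 1186 lower) was 982 (458 and 524) in the fit to the 6 libraries alone, where fewer degrees of freedom estimate the spread, 6625 (3281 and 3344) with array weights and 4009 (1991 and 2018) without all replicate 3 libraries. With the replicate number as a block it was 4408 (2298 and 2110). Leaving out 1 library gave 1459 to 2145 calls, 678 to 1042 higher and 766 to 1103 lower. The other alternatives left these counts within 1.5 times.

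In NCI-H460 the 3420 calls were 1680 with no filter and 992 to 5469 with 1 library left out, where a group of 1 library is assumed to vary like the others. The NCI-H460 numbers did not pair the libraries (correlation -0.026), and the replicate block gave 3373. The 1986 calls between lines were 4488 with the replicate block within each line, 1185 after median-of-ratios scaling and 1216 without A549 240 ASO3 replicate 3, an alternative chosen after seeing the data. The cause of these moves was not tested. Markers of other cell types that were not called changed sign: SYP was -0.09 without all replicate 3 libraries and -0.01 to 0.36 with 1 library left out, and with 1 library left out COL1A1 was -0.46 to 0.17 and SOX2 -0.31 to 0.06. COL1A1 was 0 without 42 ASO3 replicate 4, and SOX2 was 0.03 without 240 ASO3 replicate 5 or without 42 ASO3 replicate 3. The read depth is unknown, so no counting error can be set beside low values.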
